A study of Mus musculus with 6 samples.

Results

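A set of 10 genes whose products restrain or gate the kinase complex mTORC1 were followed in B16F10 cells, a mouse melanoma cell line, after depletion of OSGEP. They were the sestrins Sesn1, Sesn2 and Sesn3, Ddit4 (REDD1), Eif4ebp1 (4E-BP1), Deptor, Tsc1, Tsc2, Rragd (RagD) and Flcn (folliculin). They were taken by gene symbol from the deposited counts table. All 10 of them were among its 55487 genes, and all 10 passed the filter on low counts that left 12669 genes to test. OSGEP is the enzyme of KEOPS, the complex that adds the t6A modification to tRNAs. Poly(A) RNA was sequenced from 3 separately infected cultures that received a lentiviral scramble hairpin (shCtr) and 3 that received 1 hairpin against Osgep (shOSGEP). All 6 cultures were selected with puromycin, and no rescue or further hairpin was analysed here, so an effect of OSGEP loss and an effect of that single hairpin cannot be told apart.

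In the GENCODE M21 annotation of GRCm38 all 10 are protein-coding. On the plus strand lie Sesn1 (chr10:41809935-41908424), Sesn3 (chr9:14275067-14333101), Eif4ebp1 (chr8:27260329-27276674), Deptor (chr15:55112317-55259271), Tsc1 (chr2:28641228-28691167) and Rragd (chr4:32983037-33022180). On the minus strand lie Sesn2 (chr4:132492032-132510501), Ddit4 (chr10:59949669-59951834), Tsc2 (chr17:24595816-24632630) and Flcn (chr11:59791408-59810016). Besides Tsc2, which overlaps Pkd1, 4 of them overlap a minor gene model that had at most 30 counts in any library.

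mTORC1 drives protein synthesis and cell growth at the lysosome when amino acids and growth signals are present. The Rag GTPases, anchored by the Ragulator complex, bring it to the lysosomal membrane, and the GTPase Rheb switches it on. Cells under stress raise proteins that oppose these steps. Sestrins hold back the GATOR2 complex, and sestrin 2 also senses leucine. REDD1 acts through the TSC complex, which turns Rheb off. 4E-BP1 binds the cap-binding protein eIF4E and blocks translation initiation until mTORC1 phosphorylates it. DEPTOR is an inhibitory subunit of the kinase complex. RagD and folliculin are not simple brakes, since both help mTORC1 to see its substrates TFEB, TFE3 and MITF, which in turn drive lysosomal genes. Much of this control is exerted on proteins, through binding and phosphorylation, which mRNA levels do not show.

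Sequences upstream of the start sites are shown for a member higher in each same-numbered comparison and known as a target of the stress factor ATF4 (Sesn2), for the member best known as a target of hypoxia (Ddit4), and for 1 that was lower in each of them (Flcn). They come from RefSeq (GRCm38.p6), which gave a promoter for 8 of the 10 genes, and Eif4ebp1 and Deptor had no entry. Each run is written 5′ to 3′ on the gene's own strand, which is the minus strand for all of these genes, and bases inside the GENCODE first exon are left out. Capitals mark the GC box (GGGCGG, read on either strand) and, in Ddit4, the core of the hypoxia response element (ACGTG). In Flcn they mark a cAMP response element (TGACGTCA). The intervals are chr4:132510502-132510706 for Sesn2, chr10:59951835-59952020 for Ddit4 and chr11:59810040-59810289 for Flcn.
Sesn2: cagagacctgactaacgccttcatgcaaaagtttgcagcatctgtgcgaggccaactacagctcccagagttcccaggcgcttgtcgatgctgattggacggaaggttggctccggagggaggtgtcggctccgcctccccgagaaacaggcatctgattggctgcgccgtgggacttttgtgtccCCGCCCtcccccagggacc
Ddit4: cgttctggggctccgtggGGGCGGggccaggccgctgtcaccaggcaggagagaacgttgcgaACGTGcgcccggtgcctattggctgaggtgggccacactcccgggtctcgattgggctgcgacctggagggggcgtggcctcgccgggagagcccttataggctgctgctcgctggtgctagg
Flcn: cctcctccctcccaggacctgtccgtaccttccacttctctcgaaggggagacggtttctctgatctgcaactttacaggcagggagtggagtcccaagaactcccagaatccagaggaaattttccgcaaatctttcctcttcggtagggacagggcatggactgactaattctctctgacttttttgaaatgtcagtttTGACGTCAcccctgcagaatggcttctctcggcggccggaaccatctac

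The motifs were searched on both strands in the 250 bases before each RefSeq start. The composite element bound by ATF4 with C/EBP proteins (TGATGNAA) was in the window of 0 of the 8 genes and of 3.45% of 32851 promoters. The GC box was in the windows of 4 of the 8, Ddit4, Sesn1, Sesn2 and Sesn3, and in 32.7% of all promoters. The hypoxia core was in Ddit4 alone among the 8 and in 16.6% of all promoters, and the cAMP response element in Flcn alone and in 1.55%. The E-box (CACGTG), which contains the hypoxia core, was in 0 of the 8 and in 6.02% of all. The Flcn window also holds the first exon of Gm16062, a noncoding gene on the opposite strand. These matches describe letters in a short window and were not linked to a factor or to the levels below.

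Osgep itself was lower in the shOSGEP libraries. Its level, in CPM (counts scaled to the TMM-adjusted library size), was 20.6, 58.6 and 21.8 in shCtr replicates 1, 2 and 3 and 4.28, 0.542 and 5.52 in shOSGEP. The Log2FC (shOSGEP over shCtr) was -3.29 ± 0.88 (SE, n = 3 and 3, unadjusted p = 0.00524, edgeR quasi-likelihood test). The libraries held 18915587 to 29487384 counts. The replicate 2 libraries stood apart from the others of their group in Osgep and in the summed melanocyte markers below. A trend on GC content and length was fitted to log2 deviations from the mean of the libraries. It took 62.5% of their variance in shCtr replicate 2, 17.7% in shOSGEP replicate 2 and 21.7% to 52.9% in the other libraries. All 7 melanocyte markers were detected in each library, with a summed level of 17037 to 29599 CPM in shCtr and of 18082, 3550 and 15387 in shOSGEP. Of 8 markers of other cell types, Ptprc, Cd3e and Epcam had no count in any library, and the summed level was 11.9 to 13.0 CPM in shCtr and 15.6 to 16.3 in shOSGEP. Only 2 of the 8 passed the filter, and they went opposite ways. Pdgfrb stood at 4.42 to 9.18 CPM in shCtr and 11.4 to 15.3 in shOSGEP, without overlap. Cd68 had a Log2FC of -1.02 (unadjusted p = 0.216, edgeR). The part of the library differences in the results that follow was not tested beyond the fits without replicate 2 and with GC and length offsets. Fewer cells of a kind and less RNA per cell cannot be told apart in these bulk samples.

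None of the 10 genes differed between the groups by the main test. At an adjusted p below 0.05 (edgeR, Benjamini-Hochberg over 12669 genes) the test called 0 members, and 0.00% of all genes. At an unadjusted p below 0.05 it held 0 members and 256 genes, and at the adjusted threshold DESeq2 called 14 genes and limma-voom 3, with 0 members in either. At the threshold of the study's methods, a Log2FC beyond 0.5 with an unadjusted p below 0.05, it called 0 of 10 members and 2.02% of all genes. Every member had an adjusted p of 1.00, but Osgep, the depleted gene, was not called at an adjusted p below 0.05 by this test either. The adjusted p-values therefore do not show that a member was unchanged. The groups overlapped for all 10, where 6.36% of genes tested had no overlap. 6 members had a positive Log2FC and 4 a negative one, where 47.3% of all genes tested had a positive one. The median was 0.23 beside -0.03 over all genes (0.06 beside -0.01 without both replicate 2 libraries), and the median size was 0.39 beside 0.34. The name given to such genes, stress-induced brakes, was thus not matched by a positive Log2FC in all 10. This test cannot settle whether single members rose. The members did differ in how evenly they behaved across infections. Between same-numbered libraries 4 were higher in shOSGEP each time (Sesn2, Sesn3 with a log2 ratio of 0.00 in replicate 3, Ddit4 and Eif4ebp1, beside 17.6% of all genes) and 3 were lower each time (Deptor, Tsc1 and Flcn, beside 17.2% of all genes).

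**Figure D1:**
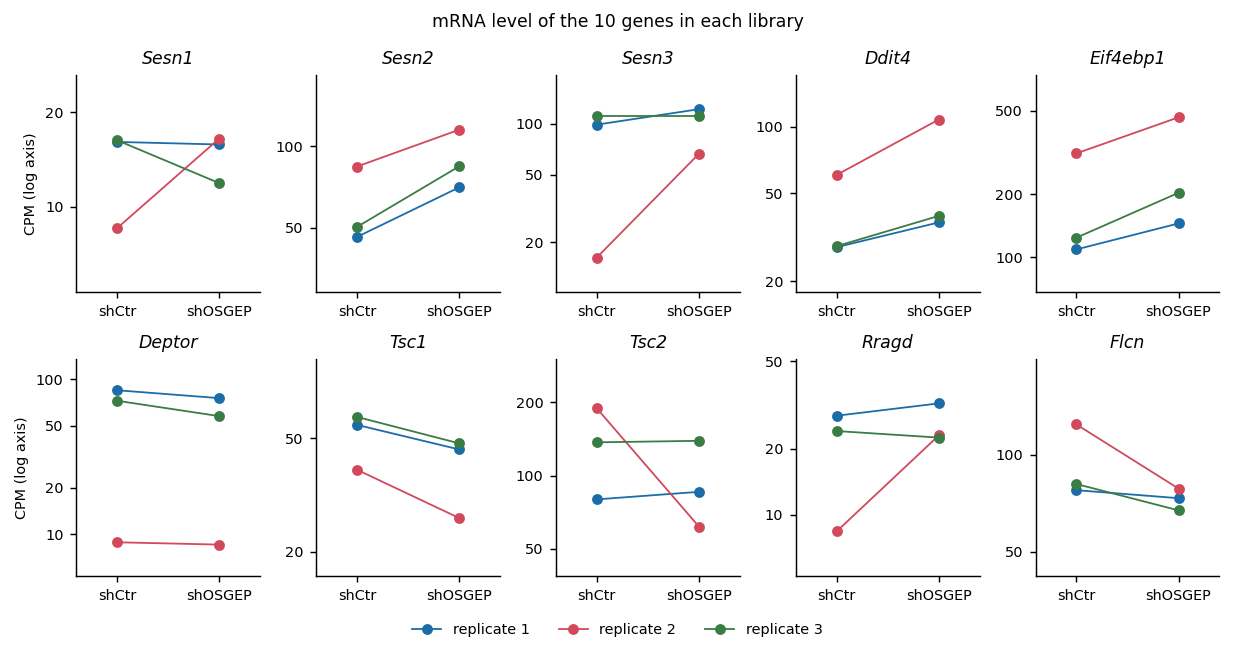
Level of each gene (CPM, log axis, with a separate range per panel) in the 3 shCtr and 3 shOSGEP libraries, with lines joining libraries of the same replicate number. The lines of Sesn2, Ddit4 and Eif4ebp1 all rise and those of Tsc1 and Flcn all fall, while replicate 2 alone sets the slope for Tsc2 and most of it for Sesn3 and Rragd.

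Sesn2, which encodes the leucine-binding sestrin, missed the threshold in the main test and passed it in 5 of 16 other fits. Its level was 46.2, 84.1 and 50.3 CPM in shCtr and 70.4, 115 and 84.2 CPM in shOSGEP. Each shOSGEP library exceeded the shCtr library of the same number, by a log2 ratio of 0.61, 0.45 and 0.74, but shCtr replicate 2 lay above shOSGEP replicate 1, so that the groups overlapped. The group means were 60.2 ± 20.8 and 89.7 ± 22.6 CPM (SD, n = 3). The Log2FC was 0.58 ± 0.43 (SE, unadjusted p = 0.215, edgeR), at percentile 87.6 of all genes tested. Its direction held in all 16 other fits, from 0.38 to 0.89, with adjusted p between 0.534 and 1.00. Sesn2 has a GC content of 58.7%, the highest of the 10, and the GC and length trend alone placed it 0.65 (log2) above the mean of the libraries in shCtr replicate 2. In a fit with offsets for that trend its Log2FC was 0.86 ± 0.28 (unadjusted p = 0.0149, edgeR), past the study threshold together with Ddit4, where 5.36% of all genes passed. With the offsets and the replicate number as a block it was 0.82 ± 0.21 (unadjusted p = 0.0124, edgeR), and Sesn2 was then the 1 member among the 6.46% of genes called. It was also the 1 member called with limma-voom and quality weights (Log2FC 0.70, unadjusted p = 0.0143, background 4.42%), without shCtr replicate 2 (0.89, unadjusted p = 0.0467 by edgeR, background 2.21%) and without both replicate 2 libraries (0.68, unadjusted p = 0.0452 by edgeR, background 1.51%).

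Sesn3, which encodes a sestrin under FOXO control, had the largest single-pair difference of the 10 genes. It stood at 98.9, 16.3 and 111 CPM across shCtr and 122, 66.6 and 111 CPM across shOSGEP. Both replicate 2 libraries were the low ones of their group, and the log2 ratio was 2.03 between them against 0.31 in replicate 1 and 0.00 in replicate 3. The Log2FC of 0.41 ± 0.67 (SE, unadjusted p = 0.561, edgeR) became -0.07 without shCtr replicate 2. Sesn1, a p53 target, was the least expressed sestrin by CPM, at 16.1, 8.55 and 16.3 CPM in shCtr and 15.8, 16.5 and 11.9 CPM in shOSGEP. It was higher in shOSGEP only in replicate 2, and its Log2FC of 0.11 ± 0.46 (SE, unadjusted p = 0.815, edgeR) was -0.14 without shCtr replicate 2 and -0.23 without both replicate 2 libraries. The sestrins thus shared no direction across infections.

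The make-up of the sestrin pool, from counts per kilobase of median transcript length, followed the same library. Sesn2 took 18.3%, 67.6% and 18% of the pool in shCtr and 22%, 44.2% and 27.3% in shOSGEP. It was the larger share only where Sesn3 was low, in shCtr replicate 2. The mean difference of Sesn2 was -3.48 percentage points, with an exact permutation p of 1.00 that could not go below 0.1, and 13.0 without shCtr replicate 2. The median transcript of Sesn3 is 1827 bases and its longest 9125, and with longest transcripts the Sesn2 difference was 3.14 points, so the order of these 2 sestrins depends on which transcript is counted. Sesn1 kept 4.17% to 7.46% of the pool throughout.

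Ddit4 encodes REDD1, which is raised by hypoxia, glucocorticoids and ATF4. Its level was 28.5, 60.6 and 28.8 CPM in shCtr and 36.9, 108 and 39.5 CPM in shOSGEP. The replicate 2 libraries were the highest in both groups, and each shOSGEP library exceeded its same-numbered partner, by log2 ratios of 0.37, 0.84 and 0.46. The Log2FC was 0.65 ± 0.57 (SE, unadjusted p = 0.291, edgeR), the highest of the 10 members. It was -0.02 without shOSGEP replicate 2 and 1.10 without shCtr replicate 2, which leave the other replicate 2 library without its partner, and 0.42 without both. Ddit4 is rich in GC (57.9%), and the trend on GC and length placed it 0.99 (log2) above the mean in shCtr replicate 2. With offsets for the trend the Log2FC was 0.90 ± 0.37 (unadjusted p = 0.0401, edgeR), and 0.79 ± 0.34 with the replicate block added (unadjusted p = 0.0715, edgeR). Its paralogue Ddit4l was barely expressed, at 1.06 to 1.70 CPM.

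Eif4ebp1, the gene for the translation repressor 4E-BP1, behaved much like Ddit4. It stood at 109, 313 and 124 CPM across shCtr and 145, 465 and 203 CPM across shOSGEP. Replicate 2 was again the high library in both groups, and the within-replicate log2 ratios were 0.41, 0.57 and 0.71. The Log2FC was 0.57 ± 0.61 (SE, unadjusted p = 0.372, edgeR). It was -0.03 without shOSGEP replicate 2 and 1.22 without shCtr replicate 2, but 0.58 without both. Unlike Sesn2 and Ddit4 it lies at a GC content of 48.2%, and offsets for GC and length left it at 0.31, or 0.42 with the block.

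The other 4E-BP genes had another pattern. Eif4ebp2, the more abundant paralogue by CPM in shCtr, stood at 235, 504 and 440 CPM across shCtr and 205, 85.4 and 342 CPM across shOSGEP. It was lower in shOSGEP in each replicate, with a Log2FC of -0.90 ± 0.58 (SE, unadjusted p = 0.158, edgeR), negative in all 16 other fits. It was -0.50 without shOSGEP replicate 2 and -0.30 without both replicate 2 libraries. Eif4ebp3 was not tested, with 0.425 CPM in shCtr replicate 1 and no count in the other 5 libraries. Per kilobase, Eif4ebp1 made up 45.3%, 52.8% and 33.8% of the 4E-BP transcripts in shCtr and 56.0%, 90.8% and 51.7% in shOSGEP. The share was larger in shOSGEP in 3 of 3 same-numbered comparisons, and only shCtr replicate 2 and shOSGEP replicate 3 overlapped. The mean was 43.9% ± 9.6 in shCtr and 66.2% ± 21.4 in shOSGEP (SD, n = 3), a difference of 22.2 percentage points with an exact permutation p of 0.2, where 0.1 is the smallest the design allows. The difference lay between 9.91 points without shOSGEP replicate 2 and 29.5 without shOSGEP replicate 3, and was 19.4 with longest transcripts. With these the mean shCtr share of Eif4ebp1 was 55.4%, so the order of the paralogues in shCtr depends on the length used. Eif4e, which encodes the cap-binding partner that the 4E-BPs occupy, had a Log2FC of -0.03 ± 0.38 (unadjusted p = 0.932, edgeR). With offsets for GC and length it was -0.57 (unadjusted p = 0.106, edgeR), and -0.51 with the replicate block added (unadjusted p = 0.107, edgeR). The log2 ratio of Eif4ebp1 to Eif4e was higher in shOSGEP by 0.57, 0.15 and 1.01 in replicates 1, 2 and 3 (mean difference 0.58, exact permutation p = 0.5). Whether more 4E-BP1 protein was present, or in which phosphorylation state, was not measured in these data.

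**Figure D2:**
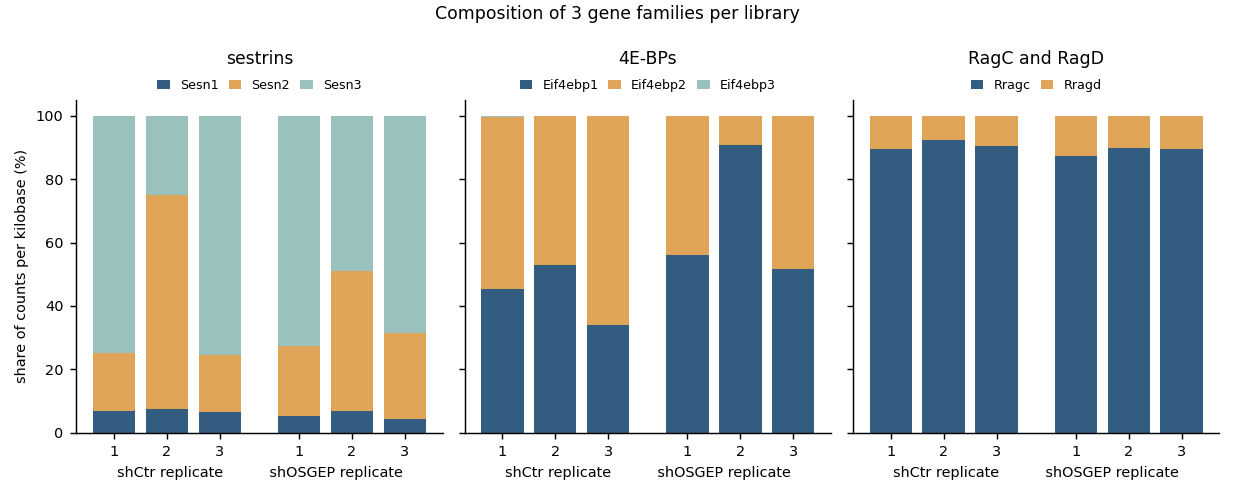
Share of each gene in the counts per kilobase of its family (percent, bars start at 0) in each of the 6 libraries, for the sestrins, the 4E-BPs and the RagC and RagD pair. Eif4ebp1 takes 33.8% to 52.8% of the 4E-BPs in shCtr and 51.7% to 90.8% in shOSGEP, while the sestrin pool changes mainly in the replicate 2 libraries.

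Deptor, the inhibitory subunit shared by both mTOR complexes, varied more between replicates than between the groups. Its level was 85.0, 8.90 and 72.7 CPM in shCtr and 75.6, 8.60 and 57.9 CPM in shOSGEP. The replicate 2 libraries were the low ones in both groups, and the log2 ratios within replicates were -0.17, -0.05 and -0.33. The Log2FC was -0.23 ± 0.93 (SE, unadjusted p = 0.810, edgeR), with the widest error of the 10. Its sign depended on the libraries kept, at 0.22 without shCtr replicate 1, 0.02 without shCtr replicate 3 and 0.27 without shOSGEP replicate 2. With the replicate block the Log2FC was -0.18 ± 0.26 (unadjusted p = 0.512, edgeR). Akt1s1, which encodes PRAS40, the other inhibitory subunit of mTORC1, ranged from 25.5 to 196 CPM in shCtr and from 19.8 to 65.9 CPM in shOSGEP (Log2FC -0.90 ± 0.82, unadjusted p = 0.304, edgeR), and was 0.58 without shCtr replicate 2.

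Both TSC genes had a negative Log2FC that missed the test. Tsc1, the stabilising subunit, stood at 55.7, 38.8 and 59.4 CPM across shCtr and 45.7, 26.3 and 48.0 CPM across shOSGEP. It was lower in shOSGEP in each replicate, by log2 ratios of -0.29, -0.56 and -0.31, although shCtr replicate 2 lay below 2 of the shOSGEP libraries. The Log2FC was -0.36 ± 0.43 (SE, unadjusted p = 0.423, edgeR), and it stayed between -0.53 and -0.12 (the latter without shOSGEP replicate 2) in the 16 other fits, none of which took it past the threshold. Tsc2, the subunit that acts on Rheb, stood at 79.9, 189 and 137 CPM across shCtr and 85.8, 61.8 and 139 CPM across shOSGEP. Replicates 1 and 3 differed by log2 ratios of 0.10 and 0.03, and replicate 2 by -1.62. The Log2FC of -0.50 ± 0.49 (SE, unadjusted p = 0.333, edgeR) came from that pair alone, being 0.06 without both replicate 2 libraries. Tsc2 overlaps Pkd1 on the opposite strand, which had 1276 to 3371 counts per library, and no strand setting is given in the sources used here, so reads from the overlap cannot be assigned with certainty. Rheb, the target of the complex, had a Log2FC of 0.68 ± 0.59 (unadjusted p = 0.284, edgeR) that was -0.07 without both replicate 2 libraries.

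Rragd and Flcn act together at the lysosome, where folliculin stimulates GTP hydrolysis by RagC and RagD. Rragd stood at 28.3, 8.41 and 24.1 CPM across shCtr and 32.2, 23.0 and 22.5 CPM across shOSGEP. shCtr replicate 2 was the lowest library and the others lay close together, with log2 ratios of 0.19, 1.45 and -0.10. The Log2FC was 0.35 ± 0.53 (SE, unadjusted p = 0.523, edgeR) and -0.02 without shCtr replicate 2. Rragd has the lowest GC content of the 10, at 45.7%, and the GC and length trend placed it 1.43 below the mean on the log2 scale in that library (a value of -1.43). With offsets for the trend its Log2FC was 0.16.

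Within its pair with Rragc, the share of Rragd was small and even. It was 10.4%, 7.49% and 9.43% of the RagC and RagD counts per kilobase in shCtr and 12.8%, 10.0% and 10.6% in shOSGEP. The share was higher in shOSGEP in 3 of 3 same-numbered comparisons, by 2.32, 2.54 and 1.19 points, and 1 shCtr library overlapped with the shOSGEP range. The mean difference was 2.02 points, from 9.12% ± 1.5 to 11.1% ± 1.4 (SD, n = 3, exact permutation p = 0.2). Rragc itself had a Log2FC of 0.09 ± 0.44 (unadjusted p = 0.839, edgeR). Among the A and B forms, with which they pair, Rraga held 97.7% to 98.8% of the counts per kilobase in every library.

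Flcn stood at 77.6, 124 and 81.1 CPM across shCtr and 73.3, 78.5 and 67.2 CPM across shOSGEP. It was lower in each replicate, by -0.08, -0.66 and -0.27 on the log2 scale, and only shOSGEP replicate 2 lay within the shCtr range. The Log2FC was -0.37 ± 0.39 (SE, unadjusted p = 0.366, edgeR) and remained negative in the 16 other fits, from -0.49 to -0.12, the smallest size being that without shCtr replicate 2. The shOSGEP libraries were tighter than the shCtr ones, at 73.0 ± 5.6 against 94.3 ± 26.0 CPM (SD, n = 3). Flcn and Rragd are both targets of the MiT/TFE factors, and their differences had opposite signs in the main test. Without shCtr replicate 2 both were negative, at -0.12 for Flcn and -0.02 for Rragd.

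**Figure D3:**
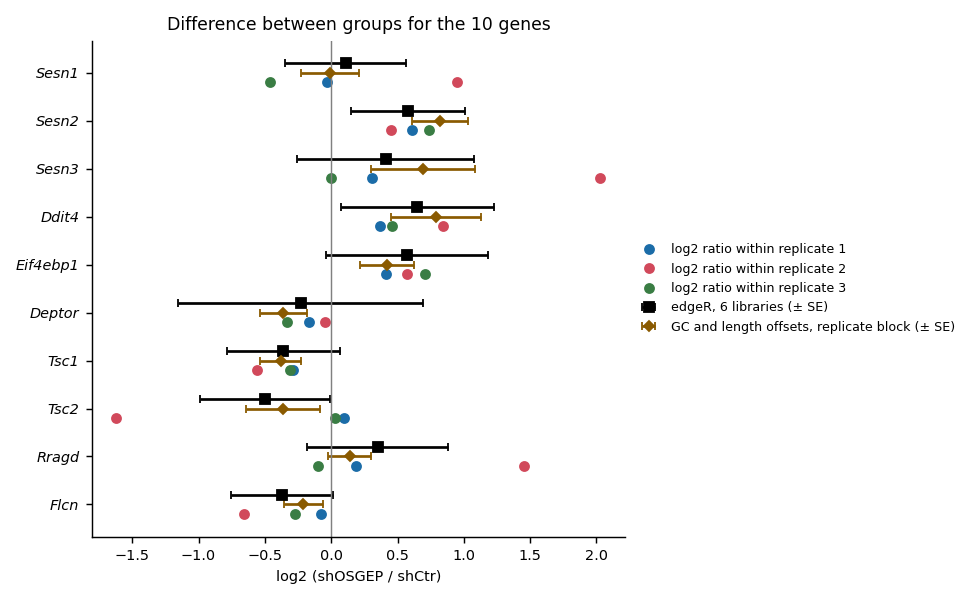
Difference between shOSGEP and shCtr (log2) for the 10 genes. Black squares give the edgeR Log2FC over 6 libraries and brown diamonds that of the fit that adds offsets for GC and length plus the block on replicate number, both with SE, and circles give the log2 ratio within each replicate number. Sesn2, Ddit4 and Eif4ebp1 have all circles to the right of 0, and the replicate 2 circle lies far from the others for Sesn1, Sesn3, Tsc2 and Rragd.

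Levels between genes can be compared only per length. In shCtr, Eif4ebp1 came first at 91.1 ± 56.8 CPM per kilobase of median transcript (SD, n = 3), followed by Sesn3 (41.3 ± 28.2), Flcn (30.4 ± 8.4), Tsc2 (24.2 ± 9.8), Ddit4 (22.4 ± 10.5), Sesn2 (17.3 ± 6.0) and Deptor (16.8 ± 12.4). Tsc1 (6.68 ± 1.43), Sesn1 (4.26 ± 1.38) and Rragd (4.05 ± 2.09) were the lowest. Eif4ebp1 lay at percentile 91.3 of the tested genes and Rragd at percentile 31.4. 4 of the 9 neighbouring pairs kept their order in all 3 shCtr libraries, namely Eif4ebp1 over Sesn3, Flcn over Tsc2, Ddit4 over Sesn2, and Tsc1 over Sesn1. The margin of Eif4ebp1 over Sesn3 was only 0.01 and 0.03 (log2) in replicates 1 and 3, and with longest transcripts Sesn3 fell to 8.27 and Deptor to 6.5 CPM per kilobase. In shOSGEP, 2 of these neighbouring pairs kept the same order in all 3 libraries, Eif4ebp1 over Sesn3 and Sesn3 over Flcn.

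The pathway around the members was read from lists of named genes. None of the lists of mTORC1 and mTORC2 subunits (10 tested), Rag GTPases and Ragulator (10), GATOR1, KICSTOR and GATOR2 (11 of 12), amino acid sensors (8), TSC complex and Rheb (5), folliculin complex (5) or AMPK and LKB1 (9 of 10) held a gene past the study threshold, which 2.02% of all genes passed. Their median Log2FC was -0.35, 0.16, -0.23, 0.40, -0.36, 0.09 and -0.26 in that order, beside -0.03 for all genes. Without both replicate 2 libraries the same medians were -0.01, -0.03, 0.00, 0.08, -0.07, -0.17 and -0.04, beside -0.01 for all genes. The Rag, sensor, TSC and folliculin lists hold some of the 10 members. For their genes outside the members the medians in the main test were 0.09, 0.39, -0.05 and 0.09 in that order. In the sensor list 7 of 8 genes had a positive Log2FC, beside 47.3% of all genes. Among them were the sestrins, which are members, and Lars, the leucyl-tRNA synthetase. Lars stood at 136, 95.3 and 173 CPM across shCtr and 240, 230 and 211 CPM across shOSGEP without overlap (Log2FC 0.75 ± 0.39, unadjusted p = 0.0907, edgeR), and with the replicate block it passed the threshold (0.79, unadjusted p = 0.0472, edgeR). In the Rag and Ragulator list, Lamtor3, a Ragulator subunit, had a Log2FC of 1.01 ± 0.53 (unadjusted p = 0.0901, edgeR) and Rraga, which encodes RagA, one of 0.82 ± 0.49 (unadjusted p = 0.133, edgeR). Without both replicate 2 libraries these were 0.20 for Lamtor3 and 0.15 for Rraga, beside 0.55 for Lars.

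Downstream of mTORC1, 0 of 11 tested targets and cap-binding genes and 0 of 19 MiT/TFE factors and lysosomal targets passed the study threshold. Negative values were found for 8 of the 11 and 13 of the 19, with medians of -0.17 and -0.22. Of all 12669 genes tested, 6671 had a negative value. Without both replicate 2 libraries these medians were -0.09 and 0.06, so that of the lysosomal list turned positive. Eif4ebp1 is in the target list, and Rragd and Flcn are in the lysosomal list. Outside the members the medians in the main test were -0.18 and -0.22. Tfeb, the lysosomal master regulator held in the cytoplasm by mTORC1, ranged from 9.05 to 50.6 CPM in shCtr and from 6.84 to 16.1 CPM in shOSGEP (Log2FC -0.98 ± 0.72, unadjusted p = 0.210, edgeR), and its Log2FC was 0.19 without shCtr replicate 2. Among the 7 tested genes of other negative regulators, 1 was called. This was Trib3, a pseudokinase that binds AKT and is induced by ATF4. Its level was 23.2, 57.9 and 38.5 CPM in shCtr and 128, 454 and 171 CPM in shOSGEP, with no overlap (Log2FC 2.66 ± 0.62, unadjusted p = 0.00258 and adjusted p = 1.00, edgeR). It was past the threshold in all 16 other fits, from 1.93 to 3.02.

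Some of the members share known inducers, and those programmes were read beside them. Deptor, Tsc1, Tsc2, Rragd and Flcn were in none of the lists of inducers that follow. In the ATF4 pathway list, 19 of 20 genes were tested, and all 19 had a positive Log2FC, beside 47.3% of all genes. Of the 19, 9 passed the study threshold, beside 2.02% of all genes, and the median was 1.29. Sesn2, Ddit4 and Eif4ebp1 belong to this list and ranked low in it, at positions 15, 14 and 16 of 19, and the median of the 16 genes outside the 10 members was 1.47. Atf4 itself stood at 280, 245 and 263 CPM across shCtr and 489, 1210 and 481 CPM across shOSGEP (Log2FC 1.47 ± 0.50, unadjusted p = 0.0182, edgeR). Without shOSGEP replicate 2 its Log2FC was 0.90 (unadjusted p = 0.0562, edgeR), without shCtr replicate 3 it was 1.47 (unadjusted p = 0.0617, edgeR), and without both replicate 2 libraries 0.84 (unadjusted p = 0.0265, edgeR). The 3 members therefore had smaller values than most of the list, while sharing its sign in each same-numbered comparison. With both replicate 2 libraries left out, the values were 0.68 for Sesn2, 0.42 for Ddit4 and 0.58 for Eif4ebp1, and the list median was 0.84.

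The p53 list, which holds Sesn1 and Sesn2, had 15 of 16 genes tested and 10 positive, beside 47.3% of all genes. Its median was 0.58, and 0.34 without both replicate 2 libraries. Outside the members the median in the main test was 0.71. The 5 negative genes were Zmat3 (-0.14), Cdkn1a (-0.19), Trp53 (-0.38), Phlda3 (-0.39) and Bax (-0.57). Without both replicate 2 libraries these 5 lay between 0.03 and 0.36. The 2 genes past the threshold, which 2.02% of all genes passed, were Plk2, a polo-like kinase, and Btg2, an antiproliferative factor. Plk2 stood at 5.69, 4.28 and 6.32 CPM in shCtr and 9.63, 38.9 and 13.0 CPM in shOSGEP (Log2FC 1.92, unadjusted p = 0.0148, edgeR), and its Log2FC was 1.07 without shOSGEP replicate 2 (unadjusted p = 0.0559, edgeR) and 0.92 without both replicate 2 libraries (unadjusted p = 0.0336, edgeR). Btg2 had a Log2FC of 1.53 (unadjusted p = 0.0360, edgeR), which was 1.44 with the replicate block (unadjusted p = 0.0846, edgeR) and between 0.92 and 1.66 in the 3 fits without 1 library that lost the call (without shCtr replicate 2, without shCtr replicate 3 or without shOSGEP replicate 2). It was 1.39 with offsets for GC and length and the block (unadjusted p = 0.0801, edgeR) and 0.56 without both replicate 2 libraries (unadjusted p = 0.0973, edgeR). The FOXO list, which holds Sesn1 and Sesn3, had 11 of 12 genes tested, 9 positive (beside 47.3% of all genes) and 0 called. Its median was 0.25, and -0.14 without both replicate 2 libraries.

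The hypoxia and glucocorticoid list, which holds Ddit4, had 13 of 14 genes tested, 9 positive (beside 47.3% of all genes) and 0 called. Its median was 0.20, and 0.03 without both replicate 2 libraries. Ddit4 ranked 4 of 13 there. Vegfa, the angiogenic growth factor, had a Log2FC of 1.49 ± 0.66 (unadjusted p = 0.0518, edgeR) and passed the threshold in 7 of 16 other fits, with 0.90 without both replicate 2 libraries (unadjusted p = 0.200, edgeR). Tsc22d3, the glucocorticoid-induced leucine zipper, had 0.98 ± 0.53 (unadjusted p = 0.0995, edgeR), and 0.37 without shOSGEP replicate 2 or 0.30 without both replicate 2 libraries. Ddit4 thus sat among the higher genes of this list and among the lower ones of the ATF4 list.

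**Figure D4:**
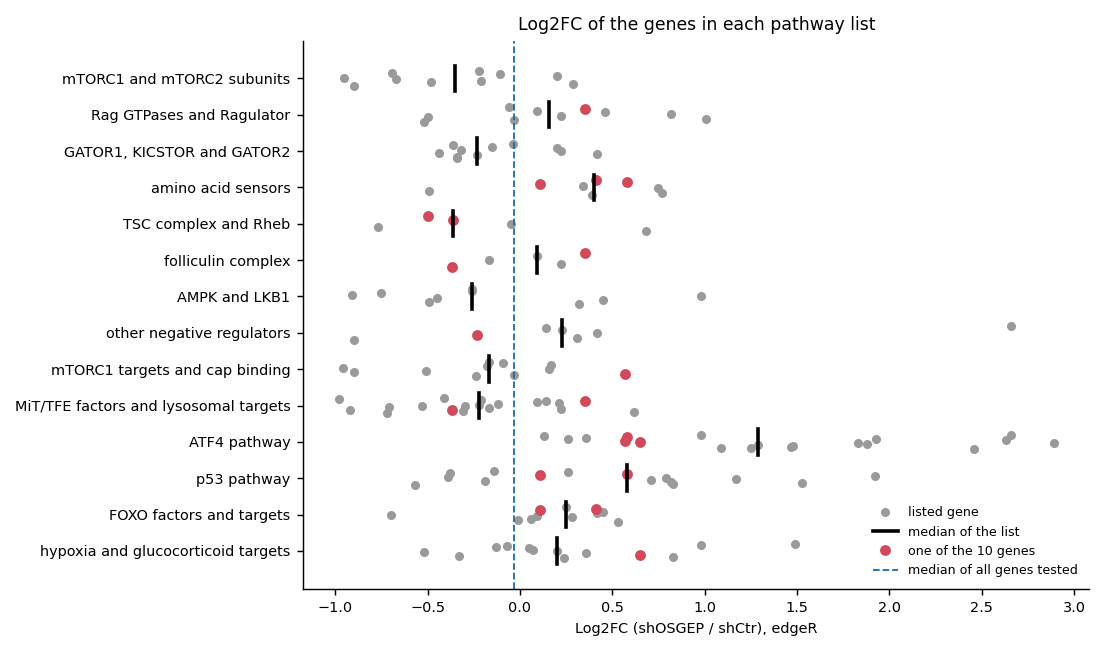
Log2FC of every tested gene (circles) in 14 lists of mTORC1 components, their targets and the inducers of the members, with the 10 genes in red, the median of each list as a bar and the median of all genes as a dashed line. The ATF4 list has all 19 genes to the right of 0, with the red members at 0.57 to 0.65 on its left side, while the lists of complex subunits lie on both sides of 0.

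The genes whose profile over the 6 libraries came closest to that of each member are given here by name. Likeness was the root mean square difference between log2 levels centred on each gene's mean, so small values mean like profiles. The closest to Sesn2 was Tmbim1 at 0.114, and the closest to Ddit4 was Asrgl1 at 0.068. Bcam was closest to Eif4ebp1 (0.078), Smc3 to Deptor (0.082), Vac14 to Tsc2 (0.069), Elk3 to Tsc1 (0.040) and Pex26 to Flcn (0.062). Slc25a15 was closest to Sesn1 (0.028), Abi2 to Sesn3 (0.092) and Usp40 to Rragd (0.029). For Deptor the shared shape was the low level in replicate 2, as Smc3 stood at 14.8 and 13.7 CPM in the replicate 2 libraries and at 102 to 144 CPM in the others. The Log2FC of these genes was 0.43 for Tmbim1, 0.73 for Asrgl1 and 0.54 for Bcam, beside 0.58, 0.65 and 0.57 for Sesn2, Ddit4 and Eif4ebp1. These values lie close by construction, since the genes were chosen for like profiles over the same 6 libraries, and no shared control was tested.

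**Figure D5:**
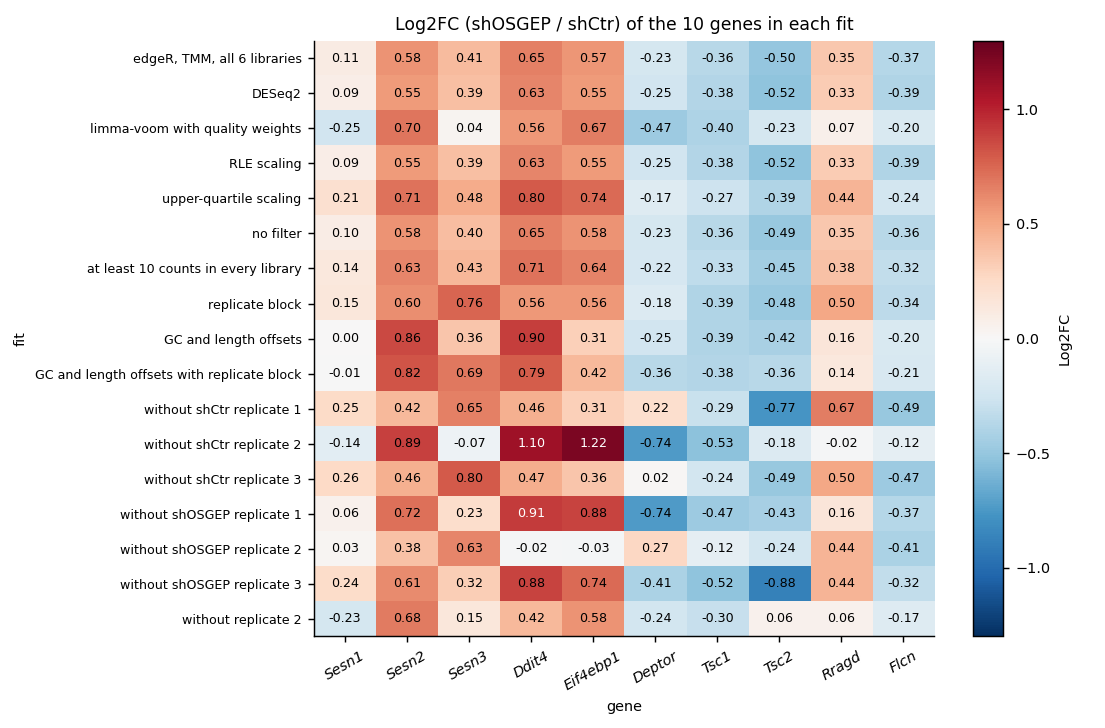
Log2FC of the 10 genes (columns) in the main edgeR fit and 16 other fits (rows), with the value in each cell and the colour scale from blue (lower in shOSGEP) to red (higher). Sesn2 is red, and Tsc1 and Flcn blue, in all 17 rows, while Sesn1 and Deptor change colour in 4 and 3 of the other fits.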

How the data were processed

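RNA-seq was made from 6 B16F10 cultures, 3 shCtr and 3 shOSGEP. Per the labels and the methods, the authors trimmed the reads, aligned them to GRCm38 with STAR 2.6.1d and quantified genes with Salmon 1.4.0, which divides reads shared by several transcripts among them; a strand setting is not given in the sources used here. The deposited values are whole-number counts per Ensembl gene, without normalisation. Genes were tested with edgeR 4.0.16 (R 4.3.3; filterByExpr, minimum count 10; TMM; quasi-likelihood F-test; two-sided; Benjamini-Hochberg over 12669 genes), as a comparison of 2 groups without a block. Log2FC errors (SE) were derived from that test, as the size of the Log2FC over the square root of its F statistic. Log2 CPM used a prior count of 2. The biological coefficient of variation was 0.566, or 0.385 with the block. The fit was checked on simulated data with known changes. Lengths and GC came from GENCODE M21, and GC and length offsets used natural splines with 5 degrees of freedom. Alternatives also included DESeq2 1.42.0 and limma 3.58.1. Deviations from the group means of same-numbered libraries correlated at 0.811, 0.557 and 0.196, and the number was taken as pairing them. Replicate 3 does not bear this out, since its shCtr library correlated at 0.491 with shOSGEP replicate 1. The correlation of shCtr replicate 2 with shOSGEP replicate 3 was 0.138. Same-numbered comparisons are therefore a description that rests on the labels.

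The 10 genes and the lists were chosen with earlier results of these data known. Beside them the text names Osgep, family partners, the up to 3 listed genes with the smallest p, Atf4 (added after its values were seen) and, for likeness, tested genes with a mean of at least 50 counts. The symbol of 1 listed gene was not found in the table. Depth was 18915587 to 29487384 counts per library, where 3 counts correspond to 0.1162 to 0.1475 CPM, for counting error only. The p-values measure the spread between 3 infections per group.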

Additional observations from a re-analysis of the deposited data

How the results depend on the processing

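Sesn2, Tsc1, Flcn, Osgep, Eif4ebp2, Rraga, Lamtor3, Lars, Trib3, Atf4, Plk2, Btg2, Vegfa and Tsc22d3 kept their direction in all 16 other fits, and scaling by RLE or the upper quartile turned the direction of no member. Reversed Log2FC values, whose cause was not tested, were as follows. With limma-voom they were -0.25 for Sesn1, -0.19 for Rragc and 0.12 for Akt1s1. With GC and length offsets Rragc was -0.02, and with the offsets and the replicate block Sesn1 was -0.01. Upper-quartile scaling gave Eif4e 0.07 and a minimum of 10 counts in every library gave it 0.00. Without both replicate 2 libraries the values were -0.23 for Sesn1, 0.06 for Tsc2, -0.21 for Rragc, -0.07 for Rheb, 0.23 for Akt1s1 and 0.11 for Tfeb. Leaving out 1 library at a time gave ranges of -0.14 to 0.26 for Sesn1, -0.07 to 0.80 for Sesn3, -0.02 to 1.10 for Ddit4, -0.03 to 1.22 for Eif4ebp1, -0.74 to 0.27 for Deptor, -0.88 to -0.18 for Tsc2 and -0.02 to 0.67 for Rragd. For the partners the ranges were 0.29 to 1.17 for Rheb, -0.21 to 0.12 for Eif4e and -0.21 to 0.29 for Rragc. Those of Akt1s1 and Tfeb were -1.33 to 0.58 and -1.37 to 0.19. Eif4e was -0.22 without both replicate 2 libraries and -0.57 with GC and length offsets.

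The count of members past the study threshold was 0, and became 1 with limma-voom, 2 with GC and length offsets, 1 with the offsets and the replicate block, and 1 without both replicate 2 libraries, and 0 to 1 without 1 library at a time. Over all genes that threshold was passed by 256 genes, by 560 with limma-voom, 599 with no filter, 679 with the offsets, 818 with the offsets and the replicate block, and 67 to 453 without 1 library, the lowest without shOSGEP replicate 2. At an adjusted p below 0.05 DESeq2 called 14 genes and limma-voom 3, none of them a member, where edgeR called 0 and 256 genes had an unadjusted p below 0.05. Beside Btg2 and Lars, the replicate block alone changed the call of Vegfa (1.51, unadjusted p = 0.0387, edgeR). It changed that of no other gene followed across the fits, which were the members and some of the other named genes. The Sesn2 share of its family, -3.48 points, was 3.14 with longest transcripts and 6.47 without both replicate 2 libraries, with a range of -11.8 to 13.0 without 1 library. A library left out leaves 2 against 3, and the lowest count of a member in any library was 171.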
